A study of Mus musculus with 4 samples.

Results

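The genes of the extracellular matrix were followed through the ventral prostate of laboratory mice: every collagen gene (38 symbols), every laminin gene (11 symbols) and 14 further matrix glycoproteins and proteoglycans, 63 genes of the 17896 in the tables. Collagens are chosen by symbols of the form Col, number, a, number, and laminins by Lama, Lamb or Lamc with a number. The others are chosen by name. No cut on a measured value was used, but the genes were chosen with earlier results of these data known. The animals were wild-type (wt) C57BL6j mice, and tissue was taken 2 weeks after hormone pellets were implanted. The sham group held 2 animals and the group coded te2 held 2, each animal being 1 single-cell library. What te2 stands for, what the sham animals received and the mice's age are not given in the sources used here. Both ventral lobes of an animal went into 1 tube and were broken up at low temperature by a protease of Bacillus licheniformis; 7000 cells were loaded for each library. The readout is the unique molecular identifier (UMI), a barcode that counts captured transcripts from their 3' ends.

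The matrix of a gland has an interstitial part and a basement membrane. The interstitial matrix is made of fibrillar collagens, collagen VI, elastic fibres and small leucine-rich proteoglycans, and fibroblasts are known as its main source. The basement membrane is a thin sheet under the epithelium, built of laminin trimers and a collagen IV network joined by nidogen and perlecan, and epithelial basal cells grip it through hemidesmosomes, with collagen VII fibrils anchoring it from below. In the prostate it separates basal and luminal epithelium from the stroma.

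Cells with at least 500 UMIs and at most 20% mitochondrial counts were kept, 8091 of 11245. Fibroblasts were cells in which Dcn, Gsn, Serping1 and Col1a2 made up at least 0.3% of UMIs while Sbp and Spink1 made up less than 10% (1150 cells). Basal cells had at least 0.2% from the keratins Krt5, Krt14 and Krt15 (1385 cells), luminal cells at least 10% from Sbp and Spink1 (3226 cells), and 2925 cells met no rule. Cells of no rule were split by marker lists that made up at least 0.5% of their UMIs, among them macrophage and proximal luminal markers. Kept libraries held 1638 and 2017 cells in sham and 2324 and 2112 in te2. The median UMI count of a kept cell was 1204 and 1722 in sham, and higher in te2, at 3427 and 4075. Luminal cells were deeper in te2, with medians of 8266 and 10359 UMIs against 1551 and 2455 in sham. The number of cell barcodes that a pair of libraries shared was 5 or fewer.

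The fibroblast rule and the basal rule overlapped, and the overlap moved with treatment. Of the cells that met the fibroblast rule, 18 of 260 and 36 of 137 in sham also met the basal rule, against 213 of 306 and 311 of 447 in te2. These double-rule cells carried the basal list of 7 markers at 4618 and 5152 CPM (counts scaled to a common library total) in sham and 14279 and 16352 in te2. Cells of the fibroblast rule only read 68 to 219 CPM for the same list. The fibroblast list of 11 markers ran the other way, 4316 to 5519 CPM in double-rule cells against 36728 to 61055 in fibroblast-only cells. Both lists hold the genes of the class rules, so these contrasts are in large part set by the rules. Pdgfra, a receptor that defines fibroblasts and is in neither rule, read 571 to 916 CPM in fibroblast-only cells and 0 to 57.7 in double-rule cells. So the cells labelled fibroblasts by the rule in te2 were mostly keratin-positive cells with Dcn, and each fibroblast result below is given for all cells of the rule and for the fibroblast-only cells (242 and 101 cells in sham, 93 and 136 in te2). The smooth muscle list of 8 markers read 267 to 430 CPM in fibroblast-only cells and the pericyte list of 6 read 67 to 197. The luminal list of 7 markers stood at 31870 and 37384 CPM in the sham fibroblast-only cells but at 4358 and 5502 in te2, and its part in the results was not tested.

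Every one of the 63 genes had at least 1 UMI in kept cells, and 47 had at least 100. The compartments parted in the tissue: 20 of the 47 had at least 75% of their UMIs in fibroblast-only cells in both groups. They were the fibrillar chains Col1a1, Col1a2, Col3a1, Col5a1 and Col5a2, the collagen VI chains Col6a1, Col6a2 and Col6a5, Col12a1, Col14a1, Col15a1, the laminin chains Lama2 and Lama4, and Bgn, Dpt, Fbn1, Lum, Nid1, Ogn and Postn. In te2, 11 had at least 75% in cells of the basal rule: Col4a2, Col4a6, Col7a1, Col16a1, Col17a1, Col18a1, Col23a1, Lama3, Lamb3, Fmod and Prelp. In sham, Col6a3 and Col7a1 were among those with at least 50% in luminal cells. Fn1, the gene of fibronectin, had 62.9% of its sham UMIs and 68.5% of its te2 UMIs in cells that met no rule. Of those, cells with macrophage markers gave 8.9% and 20.4% of all Fn1 UMIs. These shares depend on how many cells of each class a library holds, and so do not compare levels.

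**Figure D1:**
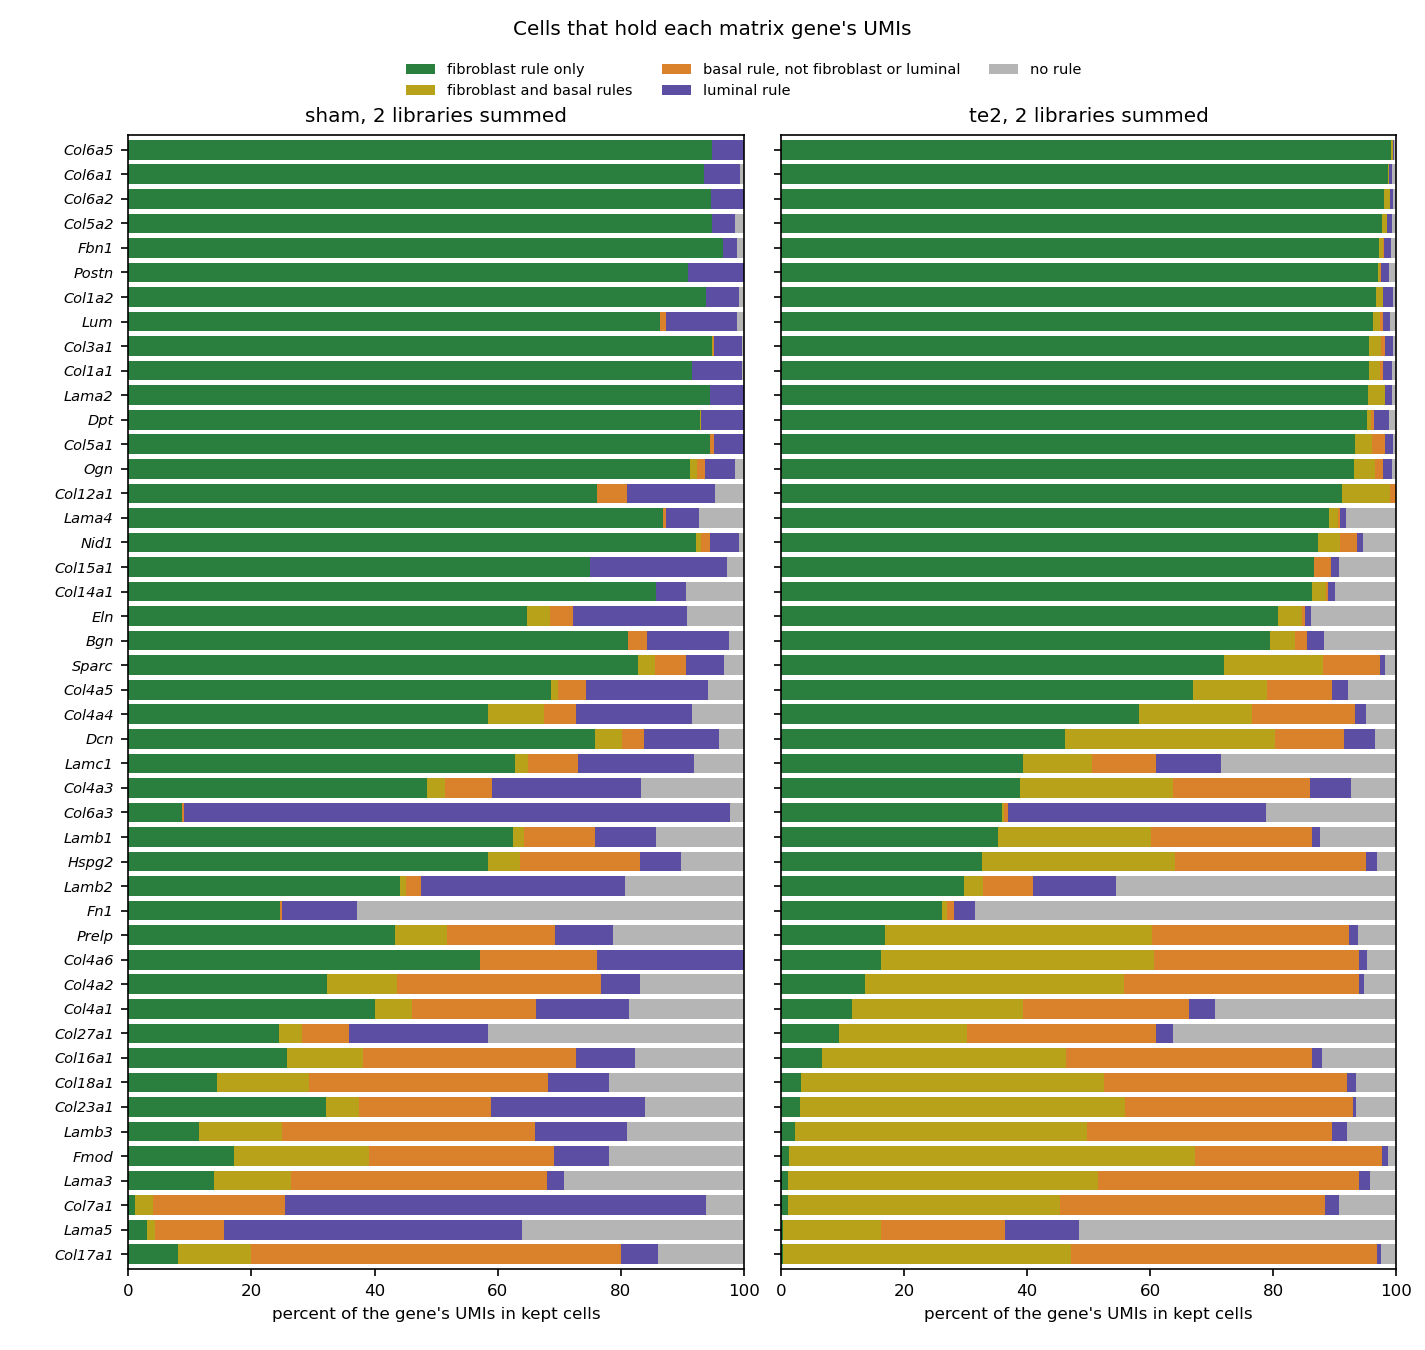
Percent of each gene's UMIs found in cells of each class, for genes with at least 100 UMIs, with the 2 libraries of a group summed. Genes are ordered by the te2 share in fibroblast-only cells (green), and the upper rows are mostly green in both groups. The orange and olive basal-rule cells take over toward the bottom in te2, and for fewer genes in sham. In sham, Col6a3 and Col7a1 are mostly purple (luminal).

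Levels and shares of UMIs moved in different directions. Genes with at least 50% of their UMIs in cells of the basal rule numbered 5 of the 47 in sham and 15 in te2. By level, in cells that meet exactly 1 rule, 33 of the 47 genes had their highest mean CPM in fibroblasts in both groups and 10 in basal cells in both, while 4 moved from basal cells in sham to fibroblasts in te2. Prelp was among those 4, with a mean of 573 CPM in fibroblasts and 640 in basal cells of sham and of 281 and 159 in te2. Col4a2 was another, with means of 269 and 629 CPM in sham and of 317 and 258 in te2. None was highest in luminal cells in either group. Among the 26 genes above 200 CPM in the fibroblast-only cells of every library, the luminal level was a median of 0.623% and 0.295% of the fibroblast level in sham and 0.142% and 0.102% in te2. Col6a3 and Lamb2 were the 2 of these 26 that stayed above 2% in luminal cells of every library. In basal-rule cells, 8 of the 26 stayed above 2%: Col4a1, Col4a2, Col4a4, Lamb2, Lamc1, Sparc, Dcn and Prelp. The classes were cut from marker genes of the same cells, so these levels are descriptions.

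Dcn and Col1a2 help to choose the fibroblasts, so the sum of matrix genes was taken over the other 61. They made up 2.72% and 2.76% of the UMIs of fibroblast-only cells in sham and 3.76% and 3.88% in te2, and the groups did not overlap. The fibroblast list of 11 markers was also higher in te2 in these cells, at 44589 and 36728 CPM in sham and 56356 and 61055 in te2. Whether the matrix sum moved apart from that list was not tested. Across all cells of the fibroblast rule the matrix sum ran the other way, 2.61% and 2.26% in sham and 1.6% and 1.61% in te2. Basal-only cells gave 0.826% and 0.681% in sham and 0.295% and 0.307% in te2, so the sum was lower there. Luminal cells gave 0.0486% and 0.0530% in sham and 0.0324% and 0.0320% in te2. The smallest two-sided p that exact permutation of 2 and 2 animals allows is 0.333.

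Across all cells of the fibroblast rule, 48 of the 61 matrix genes outside the rule had counts enough to test, and 24 passed an adjusted p of 0.05 in edgeR's quasi-likelihood test, 5 higher and 19 lower in te2. Of all 7446 genes tested in these cells, 13.9% were called. For higher genes the background was 6.23% and for lower genes 7.7%. DESeq2 called 13 of the matrix genes, leaving out sham replicate 1 gave 14 and leaving out te2 replicate 1 gave 15. In fibroblast-only cells 39 could be tested and 9 passed, 7 of them higher (Col3a1, Col5a2, Col6a3, Col6a5, Col4a5, Lamb2 and Eln) and 2 lower (Col18a1 and Dpt), against 2.7% called of all 4548 genes tested, 1.17% higher and 1.54% lower. The 19 that fell by the rule as written were all tested in fibroblast-only cells: 11 were below 0 and 8 above 0 there, and 1, Dpt, was still called. The median log2 change of the tested matrix genes was -0.77 by the rule as written and 0.40 in fibroblast-only cells, while the median of all tested genes was -0.0069 and 0.0013. By the rule as written it was -0.39 without sham replicate 1, -0.13 with doubled class thresholds and -0.18 with Dcn and Col1a2 out of the rule, and in fibroblast-only cells it was 0.21 without te2 replicate 2. Without te2 replicate 1, 3 genes were called in fibroblast-only cells, all higher.

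**Figure D2:**
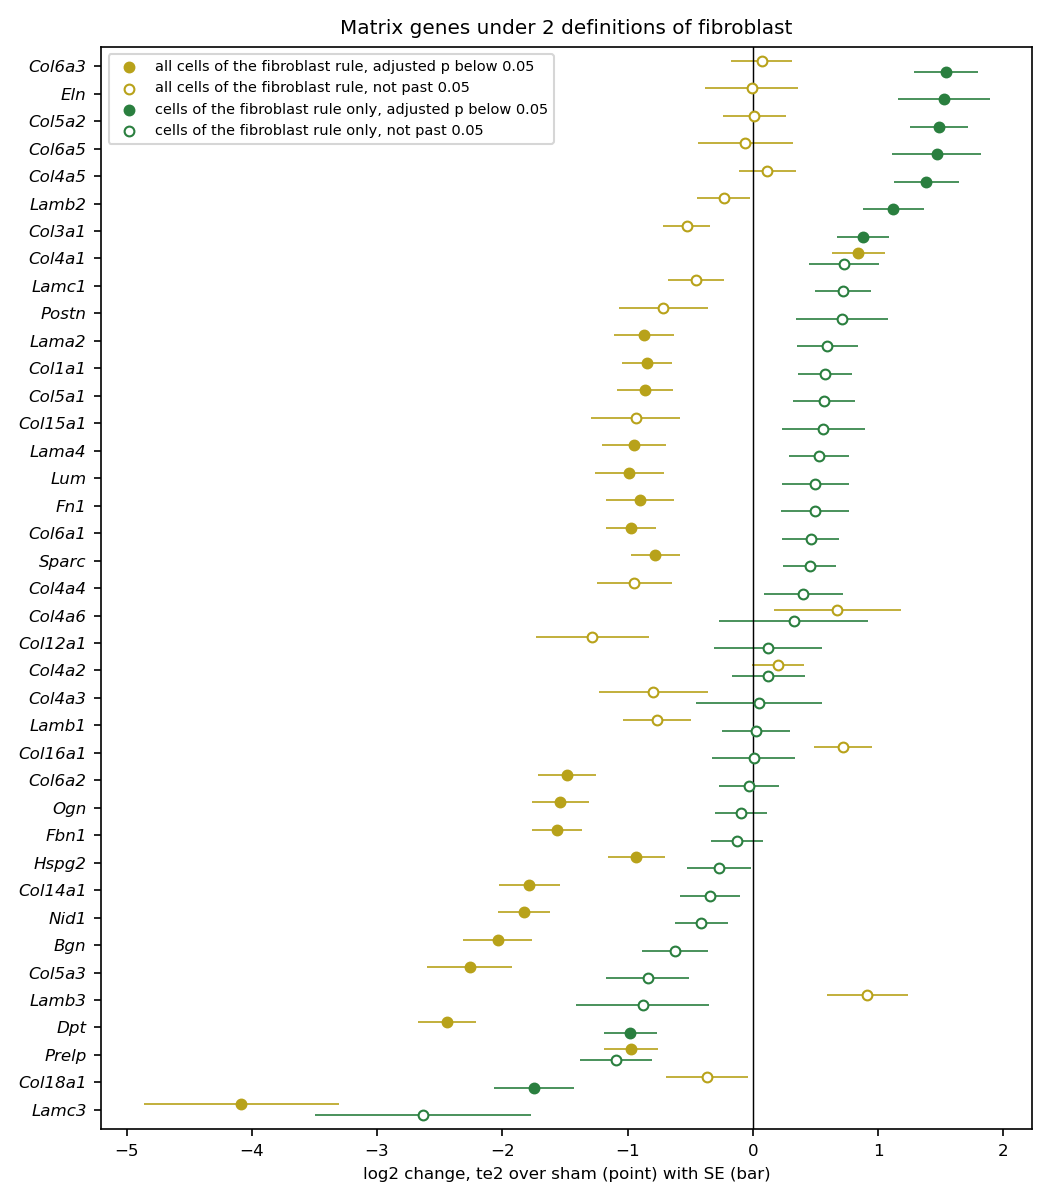
Log2 change of te2 over sham, with its SE, for the 39 matrix genes tested under both definitions, in all cells of the fibroblast rule (olive) and in fibroblast-only cells (green); filled points passed an adjusted p of 0.05. Most olive points sit left of 0 and most green points right of it: 8 of 39 lie above 0 by the rule as written and 26 of 39 in fibroblast-only cells.

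The fibrillar collagens form the banded fibres of the stroma. Col3a1, the chain of the fine reticular fibres, read 5155 and 5973 in sham and 10670.0 and 9751 in te2 as normalized CPM in fibroblast-only cells, and both te2 libraries were above both sham libraries. It rose by 0.88 (SE 0.21) on the log2 scale (adjusted p = 0.0461), a 1.84-fold change, and it lost that call when sham replicate 1, sham replicate 2 or te2 replicate 1 was left out. Across all cells of the rule it read 4602 and 4082 in sham and 3229.8 and 2796 in te2, a log2 change of -0.53 (adjusted p = 0.0829).

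Col5a2, a chain of the minor collagen that sets fibre diameter, read 673 and 527 in sham and 1854 and 1565 in te2 in fibroblast-only cells. The te2 libraries stood clear of the sham libraries, with a log2 change of 1.49 (SE 0.23) (adjusted p = 0.00883), and the call held without each library in turn. Its partner Col5a1 read 424 and 482 in sham and 556 and 765 in te2 in the same cells and did not pass (adjusted p = 0.253), and by the rule as written it read 377 and 329 in sham and 167 and 223 in te2 and was called lower (adjusted p = 0.0243). Col1a1, the main chain of type I collagen, followed the same course: 2002 and 2219 in sham and 2781 and 3491 in te2 in fibroblast-only cells, a log2 change of 0.58 (SE 0.21) that did not pass (adjusted p = 0.169). By the rule as written Col1a1 read 1783 and 1516 in sham and 835 and 1004 in te2 and was called lower (adjusted p = 0.0161).

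Col1a2, the second type I chain, helps to define fibroblasts here and so is given without a test: 3973 and 3866 in sham and 5371 and 6202 in te2 in fibroblast-only cells. Col5a3 had 81 UMIs in all and read 129 and 123 in sham and 66.9 and 73.6 in te2; its log2 change of -0.84 (SE 0.33) did not pass in fibroblast-only cells (adjusted p = 0.193), though it was called lower across all cells of the rule, at 115 and 84.2 in sham and 19.9 and 22.4 in te2 (adjusted p = 0.00187). The 4 main fibrillar chains without Col1a2 together made up 0.698% and 0.781% of UMIs in fibroblast-only cells of sham and 1.42% and 1.39% of te2. By the rule as written they made up 0.656% and 0.577% in sham and 0.470% and 0.441% in te2. They were 0 to 0.00344% in basal-only cells.

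Col3a1 and Col5a2 are neighbours in the mouse genome. The 250 bases before the start of Col3a1 (RefSeq, GRCm38.p6, chr1:45311288-45311537, plus strand) are shown because it was a fibrillar gene called higher, with capitals marking the TATAAA motif.
Col3a1: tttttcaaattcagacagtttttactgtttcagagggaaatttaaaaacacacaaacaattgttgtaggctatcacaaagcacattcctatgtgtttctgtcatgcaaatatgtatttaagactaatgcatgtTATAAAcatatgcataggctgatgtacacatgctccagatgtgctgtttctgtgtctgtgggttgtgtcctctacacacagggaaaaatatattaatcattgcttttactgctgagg
TATAAA, searched on both strands, was in 12.4% of the 32817 windows of this length and in 7 of the 49 windows that belong to the matrix genes (45 of the 63 genes matched). CCAAT was in 33.8% of all windows and 15 of the 49, and GGGCGG in 32.7% of all and 27 of the 49. No motif overlaps another in the windows shown, and a match says only that these letters occur.

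Collagen VI forms beaded filaments that link cells to the interstitial matrix, and its classical molecule needs the products of Col6a1, Col6a2 and a further chain such as that of Col6a3. In fibroblast-only cells Col6a3 read 606 and 583 in sham and 1369.8 and 2099 in te2 and rose by 1.54 (SE 0.25) on the log2 scale (adjusted p = 0.0111); all cells of the rule gave 540.0 and 406 in sham and 408 and 596 in te2 and no call. Col6a5, whose chain can take the place of that of Col6a3, read 482 and 202 in sham and 1287 and 755 in te2, with the lowest te2 value above the highest sham value (adjusted p = 0.0491). The obligate partners did not pass in these cells. Col6a1 read 807 and 1065 in sham and 1210.2 and 1334 in te2 (adjusted p = 0.305) and Col6a2 read 727 and 728 in sham and 582 and 832 in te2 (adjusted p = 0.969), although both were called lower by the rule as written, with log2 changes of -0.97 (SE 0.20) and -1.48 (SE 0.23).

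Luminal cells held most of the Col6a3 UMIs of the kept sham cells. Their 626 and 1281 UMIs in sham were 88.7% of the group's Col6a3, and the 355 and 718 UMIs in te2 were 41.8%. Luminal cells also held 2972401 of 3731994 and 3827254 of 5055644 UMIs of all genes in sham. In te2 they held 3326137 of 11918498 and 4946980 of 12746075, so these shares are not levels. UMI counts of different genes are not levels per length, so partner chains are compared by how the ratio of their counts differs between classes. The same luminal cells held 8 and 9 UMIs of Col6a1 in sham and 1 and 2 in te2, and 8 and 5 of Col6a2 in sham and 1 and 1 in te2. Fibroblast-only cells held 136, 52, 266 and 656 UMIs of Col6a3 beside 181, 95, 235 and 417 of Col6a1. The ratio of Col6a3 to Col6a1 counts was thus 112 in luminal and 0.681 in fibroblast-only cells of sham, and 358 and 1.41 in te2. The luminal Col6a3 level was 41.1% and 67.7% of the fibroblast-only level in sham and 8.73% and 7.77% in te2, while for Col1a1 it was 0.656% and 0.347% in sham and 0.121% and 0.0975% in te2. Beside the median of 0.623% or less over the 26 genes, luminal Col6a3 was the highest share of these genes in each library.

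In luminal cells Col6a3 read 219 and 339 in sham and 103 and 146 in te2 as normalized CPM, and it fell by 2.23-fold, a log2 change of -1.16 (SE 0.20) (adjusted p = 5.33e-04). The fall was called under each alternative that was run. Thus Col6a3 was called higher in fibroblast-only cells and lower in luminal cells; the difference between these 2 classes was not itself tested. The 250 bases before the Col6a3 start (RefSeq, GRCm38.p6, chr1:90843972-90844221, minus strand) are shown since its luminal level was the nearest to its fibroblast level among the 26 genes above. None of the 3 motifs above occurs in this window, so no letter is in capitals.
Col6a3: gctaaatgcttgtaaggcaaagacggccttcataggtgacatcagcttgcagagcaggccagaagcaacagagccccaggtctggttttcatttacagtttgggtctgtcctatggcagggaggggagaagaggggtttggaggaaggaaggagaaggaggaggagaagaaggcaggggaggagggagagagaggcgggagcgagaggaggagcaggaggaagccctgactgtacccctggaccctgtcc

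**Figure D3:**
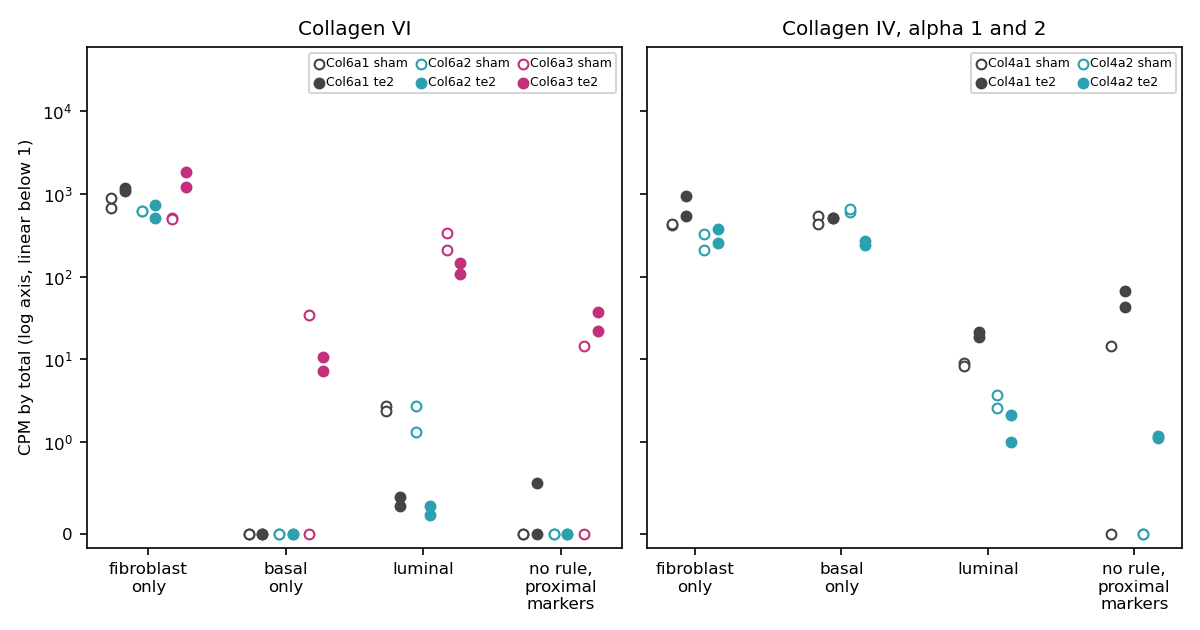
CPM by total of partner chains in each library (open circles sham, filled circles te2), in fibroblast-only, basal-only and luminal cells and in cells of no rule with proximal luminal markers; the axis is logarithmic and linear below 1. From fibroblast-only to luminal cells the points of Col6a1 and Col6a2 drop further than those of Col6a3, and the points of Col4a2 drop further than those of Col4a1.

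Of the collagens that decorate or bridge fibrils, Col14a1 read 687 and 628 in sham and 597 and 451 in te2 in fibroblast-only cells and did not pass (adjusted p = 0.474). By the rule as written it read 612 and 429 in sham and 181 and 131 in te2 and was called lower (adjusted p = 0.00119). Col12a1, Col15a1 and Col16a1 passed under neither definition, with log2 changes of 0.12, 0.56 and 0.0058 in fibroblast-only cells.

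Elastic fibres have a core of elastin on a scaffold of fibrillin. Eln, the elastin gene, read 134 and 56.04 in sham and 227 and 381 in te2 in fibroblast-only cells, where it was called higher with a log2 change of 1.52 (SE 0.37) (adjusted p = 0.0491). Its counts were small and DESeq2 did not call it. Fbn1, the fibrillin gene, read 1565 and 1748 in sham and 1545 and 1475 in te2 in the same cells. Both te2 values were under both sham values, and the log2 change of -0.13 (SE 0.21) did not pass (adjusted p = 0.805). Across all cells of the rule Fbn1 read 1394 and 1195 in sham and 461 and 417 in te2 and was called lower (adjusted p = 9.74e-04).

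Dpt encodes dermatopontin, a small protein that binds decorin and collagen fibrils. It was the gene called lower under both definitions: 2345 and 2039.7 in sham and 1071 and 1158 in te2 in fibroblast-only cells, a log2 change of -0.98 (SE 0.21) (adjusted p = 0.0324), and 2093 and 1394 in sham and 319 and 329 in te2 across all cells of the rule (adjusted p = 1.88e-04). Leaving out sham replicate 1 or te2 replicate 1 ended the call in fibroblast-only cells. Its change ran opposite to that of Col3a1 within the same cells.

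The small leucine-rich proteoglycans bind and space collagen fibrils. Dcn, decorin, is part of the fibroblast rule and is given without a test in fibroblasts, at 12641 and 9929.5 in sham and 13986 and 13171 in te2 in fibroblast-only cells. In basal-rule cells it read 1990.2 and 1681 in sham and 1685 and 2577 in te2 with overlapping groups and did not pass (adjusted p = 0.672), and in luminal cells 117 and 69.8 in sham and 152 and 47.5 in te2 (adjusted p = 0.89). In te2, 34.1% of all Dcn UMIs lay in double-rule cells and 11.1% in basal-only cells, against 4.4% and 3.6% in sham. Dcn itself helps to part these classes, and double-rule cells numbered 18 and 36 in sham and 213 and 311 in te2. These shares are therefore not levels. The same double-rule cells of both te2 libraries held 32 UMIs of Col1a1 beside 1631 in fibroblast-only cells.

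Ogn, osteoglycin, read 3068 and 2533 in sham and 2637 and 2637 in te2 in fibroblast-only cells and did not pass (adjusted p = 0.876), whereas all cells of the rule gave 2748 and 1792 in sham and 803 and 772 in te2 and a call (adjusted p = 0.00161). In basal-rule cells, with 10 and 15 UMIs in sham, Ogn read 184 and 84.6 in sham and 15.7 and 26.2 in te2 and fell by 5.19-fold (adjusted p = 1.27e-04). Bgn encodes biglycan, a close relative of decorin. It read 838 and 605 in sham and 381 and 566 in te2 in fibroblast-only cells (adjusted p = 0.24), 747 and 414 in sham and 121 and 166 in te2 by the rule as written (adjusted p = 0.00119), 92.1 and 33.8 in sham and 5.46 and 6.71 in te2 in basal-rule cells (adjusted p = 9.56e-04) and 5.94 and 6.08 in sham and 1.45 and 0.812 in te2 in luminal cells (adjusted p = 0.00174). Its basal values rest on 5 and 6 sham UMIs and on 8 and 11 of te2. The fibroblast list of 11 markers, which holds Dcn, read 1466 and 1245 CPM in basal-only cells of sham and 1080 and 1336 in te2. Nearly all of that sum was Dcn and Gsn, which the class rules cap in these cells. The sum therefore does not show how other fibroblast genes moved there. The part of fibroblast RNA in the Ogn and Bgn results was not tested.

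Fmod and Prelp, fibromodulin and a proteoglycan that ties basement membrane to collagen, had most of their te2 UMIs in keratin-positive cells. Fmod read 276 and 367 in sham and 45.7 and 86.6 in te2 in basal-rule cells and fell by 5.09-fold, a log2 change of -2.35 (SE 0.27) (adjusted p = 1.65e-10), with both te2 libraries far below both sham libraries. Prelp read 903 and 513 in sham and 243 and 249 in te2 there, a log2 change of -1.39 (SE 0.23) (adjusted p = 5.54e-06). In fibroblasts Prelp was called lower by the rule as written, at 758 and 567 in sham and 334 and 349 in te2 (adjusted p = 0.0112), and read 749 and 605 in sham and 227 and 403 in te2 in fibroblast-only cells without passing (adjusted p = 0.0653). Luminal cells held 9.08 and 5.82 in sham and 2.62 and 1.22 in te2 and it was called lower (adjusted p = 0.00502). Lum, lumican, stayed with fibroblasts: 272 and 235 in sham and 427 and 310.4 in te2 in fibroblast-only cells (adjusted p = 0.345) and 242 and 161 in sham and 129 and 87.98 in te2 by the rule as written, where it was called lower (adjusted p = 0.0324).

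Sparc binds collagen and escorts it from the cell. It read 4205 and 4472 in sham and 5222 and 6634 in te2 in fibroblast-only cells (adjusted p = 0.285) and 3780.2 and 3323 in sham and 1832 and 2314 in te2 by the rule as written, where it was called lower (adjusted p = 0.0224). In basal-rule cells it read 442 and 609 in sham and 246 and 441 in te2 and narrowly missed the threshold (adjusted p = 0.053), while in basal-only cells it fell, with 356 and 541 in sham and 179 and 265 in te2 and a log2 change of -1.15 (SE 0.26) (adjusted p = 4.61e-04). Luminal cells held 17.1 and 13.5 in sham and 4.07 and 4.87 in te2 and it was called lower (adjusted p = 5.37e-04). Fn1 read 709 and 807 in sham and 1349 and 790.4 in te2 in fibroblast-only cells with overlapping groups (adjusted p = 0.36), was called lower by the rule as written, at 631 and 551 in sham and 414 and 229.8 in te2 (adjusted p = 0.0435), and read 30.7 and 7.14 in sham and 16.3 and 1.83 in te2 in luminal cells (adjusted p = 0.219). Postn, a matricellular protein that joins collagen to other matrix, read 419 and 628 in sham and 1189.6 and 499 in te2 with overlapping groups and passed in neither definition.

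Basement membrane genes were shared between stroma and epithelium. In basal-rule cells 31 of the 63 genes could be tested; 9 were lower in te2 and 0 higher, against 8.83% of all 9196 genes called in either direction, 5.45% higher and 3.38% lower. The 9 were Col18a1, Col4a2, Col4a4, Hspg2, Lamb3, Fmod, Prelp, Ogn and Bgn. The median log2 change of the tested matrix genes was -0.43, beside 0.071 for all genes tested. DESeq2 called 5, all lower, and no matrix gene was higher by either tool. Of the matrix genes 13 had an unadjusted p under 0.05. The sham libraries held 48 and 170 basal-rule cells and sham replicate 1 only 48985 UMIs in them, against 593 and 574 cells in te2. Without te2 replicate 1, 4 were called, and without te2 replicate 2 the median of the matrix genes was -0.84, and -1.13 in place of -0.64 in basal-only cells. With doubled class thresholds that median was 0.040, beside 0.29 for all genes, and without sham replicate 2 it was -0.36, beside 0.63. Leaving out 1 of the te2 libraries, either one, ended the calls of Bgn, Col4a2, Hspg2 and Lamb3; leaving out sham replicate 2 ended those of Col4a2, Col4a4 and Hspg2, sham replicate 1 that of Bgn and te2 replicate 1 that of Col4a4. Basal-only cells gave 9 as well, all lower, of 27 tested (background 8.98%, with 5.8% higher and 3.17% lower), with Sparc in and Col4a4 out, and 3 to 8 with 1 library left out. Other cells' markers moved with the treatment in basal-only cells. The luminal list of 7 markers read 32542 and 36028 CPM in sham and 4713 and 9106 in te2, and the proximal luminal list of 7 read 71.5 and 862 in sham and 2994 and 2999 in te2. Their part in the basal results was not tested.

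Col18a1 encodes the collagen whose end fragment is endostatin and which sits in epithelial basement membranes. Its basal-rule level was 2377 and 2572 in sham and 588 and 774 in te2, and it fell by 3.65-fold, a log2 change of -1.87 (SE 0.24) (adjusted p = 8.77e-09). The call held under each alternative that was run in basal cells. It also fell in fibroblast-only cells, at 383 and 717 in sham and 175 and 141 in te2 (adjusted p = 0.018), and in luminal cells, with 11.2 and 18.8 in sham and 3.78 and 4.67 in te2 (adjusted p = 8.92e-04). Of the collagens it was the gene called lower in all 3 classes, counting fibroblast-only cells; across all cells of the fibroblast rule it read 524 and 1332 in sham and 629.7 and 764 in te2 and was not called (adjusted p = 0.5).

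Collagen IV is the network former. Its most common trimer takes the products of Col4a1 and Col4a2, whose genes lie head to head: the RefSeq promoter windows, from 250 bases before to 50 after each start, share 78 bases at chr8:11312777-11312854 of GRCm38.p6. In basal-rule cells the 2 chains had log2 changes of opposite sign, and the difference between them was not tested. Col4a2 read 608 and 694 in sham and 371 and 345 in te2 and fell, with a log2 change of -0.89 (SE 0.22) (adjusted p = 0.00352), while Col4a1 read 461 and 457 in sham and 642 and 722 in te2 with a log2 change of 0.57 (SE 0.24) that did not pass (adjusted p = 0.132). In summed counts, basal-only cells had 79 UMIs of Col4a1 for 112 of Col4a2 in sham and 1047 for 527 in te2.

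The ratio of Col4a1 to Col4a2 counts differed between cell classes and groups. It was 1.44 in fibroblast-only, 0.705 in basal-only and 2.81 in luminal cells of sham, and 2.35, 1.99 and 13.7 in te2. Luminal cells held 59 UMIs of Col4a1 and 21 of Col4a2 in sham and 164 and 12 in te2. Col4a1 read 9.43 and 8.46 in sham and 20.9 and 18.7 in te2 there and rose by 2.21-fold, a log2 change of 1.14 (SE 0.23) (adjusted p = 0.00207), and the call held under each alternative that was run. Cells of no rule, which include cells with macrophage, endothelial and proximal luminal markers, held 32 and 41 UMIs of Col4a1 beside 30 and 27 of Col4a2 in sham and 675 and 467 beside 44 and 28 in te2. Those with proximal luminal markers held 119 and 72 of Col4a1 beside 2 and 2 of Col4a2 in te2. In fibroblast-only cells Col4a1 read 495 and 516 in sham and 603 and 1049.6 in te2 and Col4a2 388 and 247 in sham and 283 and 429 in te2, and neither passed. Col4a1 was called higher by the rule as written, at 476 and 459 in sham and 752 and 926 in te2 (adjusted p = 0.0206). These UMIs come from the 3' ends of transcripts, and how reads of each gene were assigned is not given in the sources used here.

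Among the rarer collagen IV chains, Col4a5 rose in fibroblast-only cells, at 174 and 224 in sham and 520.1 and 489.6 in te2, a log2 change of 1.38 (SE 0.26) (adjusted p = 0.0185), and did not pass by the rule as written (adjusted p = 0.787). Col4a4 was called lower in basal-rule cells, at 92.1 and 95.9 in sham and 23.2 and 51.8 in te2 (adjusted p = 0.0444), on 5 and 17 UMIs in sham. That call was kept in 2 of 13 alternatives, and in basal-only cells the log2 change was -0.64 (adjusted p = 0.629). In luminal cells it was called lower too, at 3.14 and 5.29 in sham and 0.872 and 0.609 in te2 (adjusted p = 0.00444), a call kept in 7 of 10 alternatives. Col4a3 and Col4a6 passed in no class.

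Nid1 and Hspg2, nidogen and perlecan, bridge the laminin and collagen IV layers. Nid1 read 1088 and 1154 in sham and 834 and 848 in te2 in fibroblast-only cells and did not pass (adjusted p = 0.333), and 973 and 804 in sham and 254 and 249.6 in te2 by the rule as written, where it was called lower (adjusted p = 4.80e-04). Hspg2 fell in basal-rule cells, at 111 and 147 in sham and 51.8 and 60.4 in te2 with a log2 change of -1.29 (SE 0.34) (adjusted p = 0.008). In fibroblasts it was called lower by the rule as written, at 199 and 191 in sham and 109 and 97.9 in te2 (adjusted p = 0.0184), and not in fibroblast-only cells, at 218 and 224 in sham and 196 and 173 in te2 (adjusted p = 0.63).

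Laminins are trimers of an alpha, a beta and a gamma chain. The stromal alpha chains Lama2 and Lama4 read 348 and 280.2 in sham and 469 and 499 in te2 and 606 and 471 in sham and 875 and 707 in te2 in fibroblast-only cells. Neither passed there (adjusted p = 0.214 and adjusted p = 0.272), and both were called lower by the rule as written, at 309.7 and 191 in sham and 139 and 146 in te2 and 540.0 and 322 in sham and 262 and 203 in te2. Lamb2 rose in fibroblast-only cells, at 263 and 336 in sham and 654 and 621 in te2, a log2 change of 1.12 (SE 0.25) (adjusted p = 0.0345), and in luminal cells, at 9.43 and 10.6 in sham and 16.6 and 17.9 in te2 (adjusted p = 0.0204). Lamc1, the common gamma chain, read 700.1 and 583 in sham and 1097 and 1040.0 in te2 in fibroblast-only cells and did not pass (adjusted p = 0.113), and rose in luminal cells, at 9.78 and 9.26 in sham and 17.4 and 17.05 in te2 (adjusted p = 0.0128). Lamb1 passed in no class. Lamc3, with 21 UMIs, was called lower by the rule as written, at 43.7 and 38.3 in sham and 0 and 3.59 in te2 (adjusted p = 0.00575), and not in fibroblast-only cells (adjusted p = 0.126).

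Lama3 and Lamb3 give an alpha and a beta chain of the laminin that hemidesmosomes hold. In basal-rule cells Lamb3 fell, at 553 and 468 in sham and 248 and 266 in te2, a log2 change of -0.94 (SE 0.23) (adjusted p = 0.00263). Lama3 read 166 and 175 in sham and 152 and 162 in te2 and did not pass (adjusted p = 0.843). Luminal cells held 17, 13, 14 and 9 UMIs of Lamb3 and 1, 1, 2 and 7 of Lama3 in the 4 libraries. Lama5, the epithelial alpha chain, read 9.43 and 13.5 in sham and 11.04 and 9.33 in te2 in luminal cells with overlapping groups and 147 and 73.3 in sham and 83.2 and 80.5 in te2 in basal-rule cells, and passed in neither. By the fibroblast rule as written Lama3 and Lama5 were called higher, at 27.8 and 91.9 in sham and 156 and 152 in te2 and 19.9 and 15.3 in sham and 72.01 and 61.05 in te2. Neither had counts enough to test in fibroblast-only cells. The mean there was 30.3 CPM in sham and 10.3 in te2 for Lama3, and 12.3 and 4.27 for Lama5.

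The anchoring complex has collagens of its own. Col17a1, a transmembrane collagen of hemidesmosomes, read 36.9 and 203 in sham and 229 and 204 in te2 in basal-rule cells and did not pass (adjusted p = 0.393). By the fibroblast rule as written it was called higher, at 7.94 and 61.3 in sham and 213 and 169 in te2 (adjusted p = 0.00329). In fibroblast-only cells it could not be tested, and its mean there was 13.3 CPM in sham and 3.72 in te2. Cells of the basal rule held 96.5% of its te2 UMIs. Col7a1, which makes the anchoring fibrils, held 68.4% of its sham UMIs in luminal cells and 2.3% of its te2 UMIs. Luminal cells also held most UMIs of all genes in sham, 2972401 of 3731994 and 3827254 of 5055644, so this share is not a level. Col7a1 read 5.59 and 13.5 in sham and 0.581 and 1.22 in te2 in luminal cells and fell by 10.03-fold, a log2 change of -3.33 (SE 0.55) (adjusted p = 4.51e-04), on 16 and 51 sham UMIs and on 2 and 6 of te2. In basal-rule cells it read 18.4 and 147 in sham and 108 and 90.2 in te2 with overlapping groups (adjusted p = 0.795). By the fibroblast rule as written it was called higher, at 0 and 30.6 in sham and 110.3 and 78.1 in te2 (adjusted p = 0.0119). Col7a1 could not be tested in fibroblast-only cells, where its mean was 4.76 CPM in sham and 7.45 in te2. Cells of the basal rule held 87.2% of its te2 UMIs. Col16a1, which joins collagen to other matrix, read 276 and 321 in sham and 232 and 246 in te2 in basal-rule cells and did not pass (adjusted p = 0.397).

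The 250 bases before the start of Col7a1 (RefSeq, GRCm38.p6, chr9:108953336-108953585, plus strand) are shown since its response differed between basal and luminal cells, with capitals marking CCAAT, here on the other strand, and GGGCGG.
Col7a1: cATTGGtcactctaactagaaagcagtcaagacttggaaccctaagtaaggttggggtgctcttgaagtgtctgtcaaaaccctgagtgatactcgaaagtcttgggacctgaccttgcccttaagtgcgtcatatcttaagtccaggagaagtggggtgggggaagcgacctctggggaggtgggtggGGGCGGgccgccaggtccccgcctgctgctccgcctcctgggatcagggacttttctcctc

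In luminal cells 20 of the 63 genes could be tested and 14 passed, 4 higher (Col4a1, Lamb2 and Lamc1 among them) and 10 lower, against 32.1% called of all 10976 genes tested, 18% higher and 14.1% lower. The lower genes were Col6a3, Col7a1, Col18a1, Col4a4, Sparc, Bgn, Prelp, Col1a1, Col1a2 and Dpt. The median log2 change of the tested matrix genes was -1.15, beside -0.0066 for all genes; it was -0.41 without sham replicate 1 and -0.44 in cells of at least 1000 UMIs, with 10 genes called in each case. Several of the lower genes are fibroblast genes counted at a trace in luminal cells. Col1a1 read 11.5 and 6.61 in sham and 2.91 and 3.04 in te2 and was called lower (adjusted p = 0.0077), Col1a2 read 13.3 and 8.46 in sham and 5.23 and 5.88 in te2 (adjusted p = 0.0414) and Dpt 14.7 and 2.91 in sham and 2.03 and 1.62 in te2 (adjusted p = 0.0188). RNA from other cells was not tested as their source. In luminal cells the fibroblast list of 11 markers read 289 and 158 CPM in sham and 381 and 238 in te2. Most of that sum was Dcn and Gsn, and the markers did not move alike. Gsn read 91.5 and 51.2 CPM in sham and 187 and 163 in te2, whereas Serping1 read 14.5 and 7.58 in sham and 3.01 and 2.43 in te2. The proximal luminal list of 7 markers read 144 and 96.2 CPM in luminal cells of sham and 2028 and 2128 in te2, and the red blood cell list of 5 read 1249 and 449 in sham and 19.5 and 9.5 in te2; their part in the luminal results was not tested. With 1 library left out, 10 to 17 of the genes were called. Without sham replicate 1 the calls of Col1a1, Col1a2, Dpt and Lamb2 were lost, without sham replicate 2 that of Col4a4, without te2 replicate 1 that of Col1a2, and without te2 replicate 2 those of Col1a2, Col4a4, Lamb2 and Prelp.

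**Figure D4:**
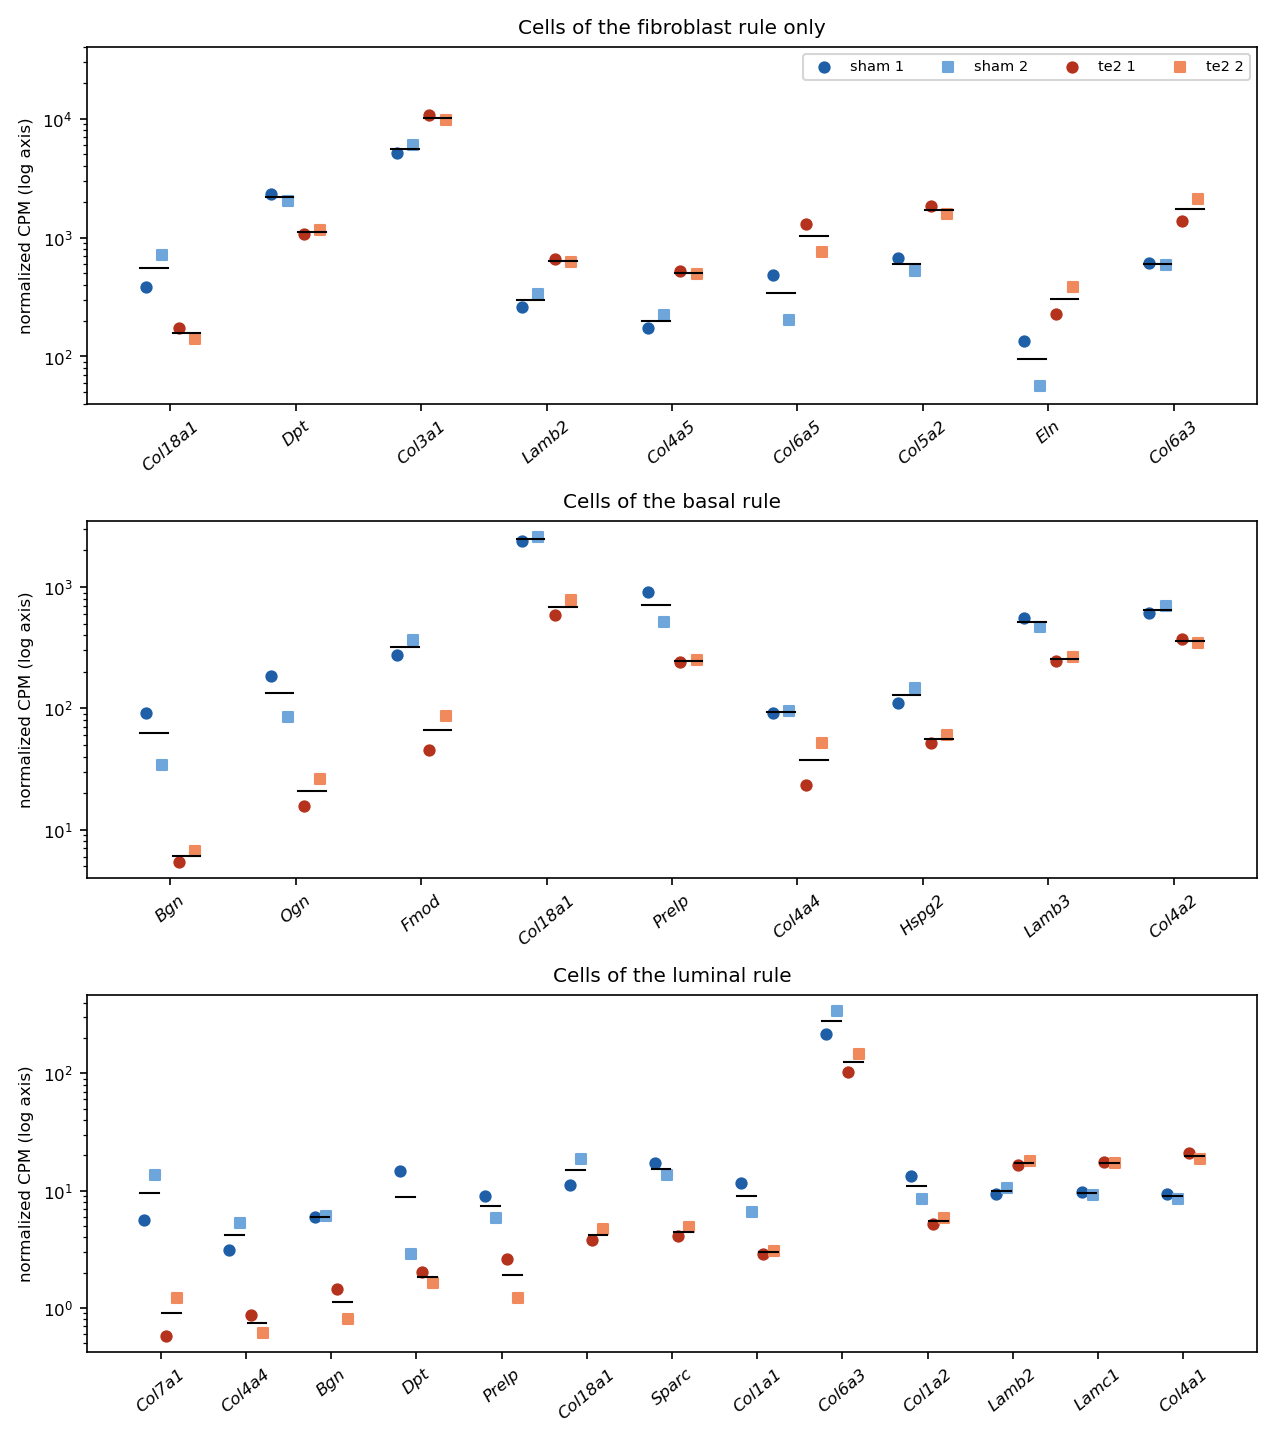
Normalized CPM in each library (logarithmic axes; circles replicate 1, squares replicate 2, blue sham, red and orange te2, black bars the mean of 2 libraries) of matrix genes called in fibroblast-only, basal-rule and luminal cells. The groups do not overlap for any gene shown; the luminal genes shown other than Col6a3 sit far below 100 CPM.

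Whether a gene responded differently in 2 classes was tested as the term of class by treatment, with the library as a block, in cells that meet exactly 1 rule. Between fibroblasts and basal cells, 5 of 46 matrix genes differed, all with a higher response in fibroblasts, against 1% of all 5888 genes, 0.493% higher in fibroblasts and 0.51% lower: Sparc, Lamc1, Ogn, Bgn and Col4a2. For Sparc the difference was 1.66 on the log2 scale (SE 0.38, adjusted p = 0.00432), from 0.45 in fibroblasts and -1.15 in basal cells. For Lamc1 it was 2.02 (SE 0.46, adjusted p = 0.00495), with 0.72 in fibroblasts and -1.09 in basal cells. The median difference was 0.65 over the 46 matrix genes and -0.16 over all genes; without sham replicate 2 it was -0.34, beside -0.67 over all genes. None of the 5 was called without te2 replicate 1 or without te2 replicate 2. The basal side of this test was basal-only cells, which numbered 26 in sham replicate 1 and 124 in sham replicate 2. For Bgn it rests on few counts, 4 and 5 UMIs in those sham cells against 3 in each te2 library.

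Between basal and luminal cells, 2 of 34 matrix genes differed, against 1.3% of all 11572 genes, 0.907% higher in basal cells and 0.398% lower. Col7a1 fell in luminal cells and its basal log2 change was -0.62, a difference of 3.02 (SE 0.64, adjusted p = 0.000581). That basal change is for basal-only cells, where Col7a1 had a mean of 71.8 CPM in sham and 73.9 in te2. It rests on few sham counts. Among all basal-rule cells Col7a1 had 1 UMI in sham replicate 1 and 26 in sham replicate 2, and the basal-only cells are a part of those. Lamc1 rose in luminal cells and had a basal log2 change of -1.09, a difference of -1.87 (SE 0.47, adjusted p = 0.00918). DESeq2 called neither of them, and neither was called without te2 replicate 1 or without te2 replicate 2.

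**Figure D5:**
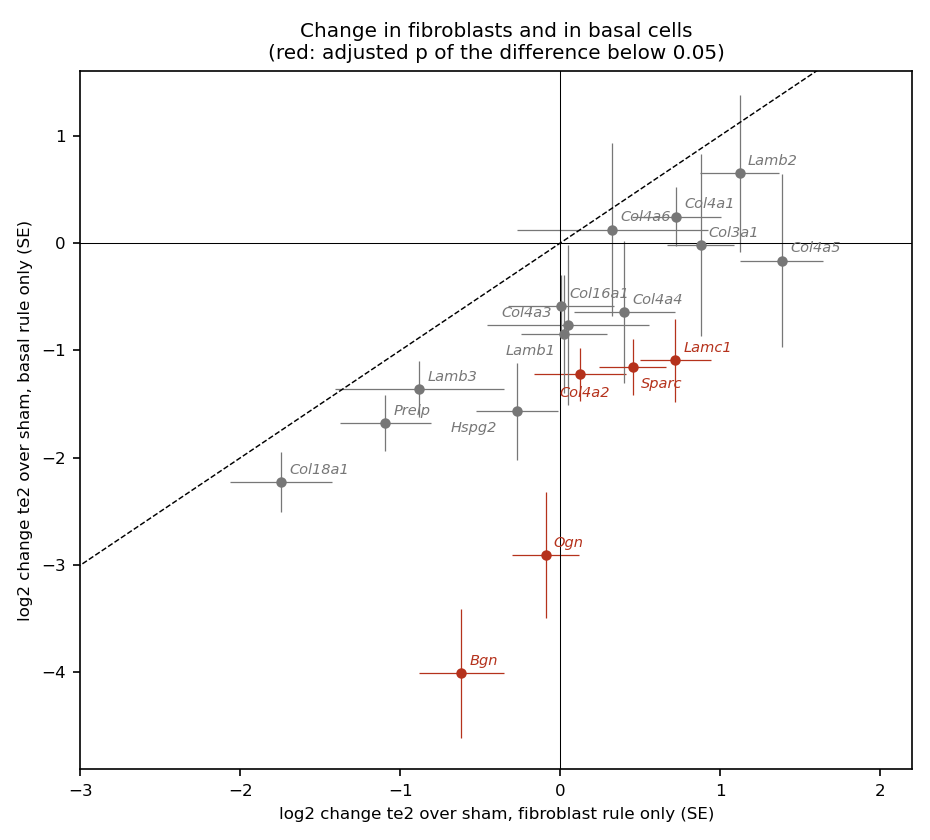
Log2 change of te2 over sham in fibroblast-only cells (horizontal) and basal-only cells (vertical), with SE, for the 18 matrix genes tested in both; the dashed line marks equal change. All 18 points lie below the line, and the 5 red genes (Bgn, Ogn, Col4a2, Sparc and Lamc1) are those whose difference passed an adjusted p of 0.05.

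The genes that process, degrade and bind matrix were read from 5 lists. In fibroblast-only cells 0 rose and 1 fell of 22 tested genes for fibrillar collagen and cross-linking, 0 and 0 of 16 proteases and inhibitors, 0 and 1 of 11 matrix receptors, 3 and 0 of 31 other matrix proteins, and 0 and 0 of 11 on the TGF-beta axis. Pcolce2, an enhancer of procollagen cleavage, fell, at 366 and 482 in sham and 139 and 92.8 in te2 (adjusted p = 0.00853), as did the syndecan gene Sdc1, at 116 and 123 in sham and 10.3 and 22.4 in te2 (adjusted p = 0.0153). Ccdc80, Cilp and Mgp rose, with log2 changes of 1.16 (SE 0.22), 1.73 (SE 0.33) and 1.26 (SE 0.28); Mgp is an inhibitor of calcification and Cilp a matrix protein first known from cartilage. Of all genes tested in these cells, 1.17% were called higher and 1.54% lower. By the rule as written 13 of 32 other matrix proteins fell and 0 rose, against 7.7% lower and 6.23% higher of all genes.

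In basal-rule cells 1 rose and 2 fell of 17 genes for fibrillar collagen and cross-linking, 1 and 4 of 13 proteases and inhibitors, 0 and 4 of 18 receptors, 0 and 3 of 14 other matrix proteins, and 1 and 0 of 12 on the TGF-beta axis, against 5.45% higher and 3.38% lower of all genes tested. Tgm2, a transglutaminase that cross-links matrix, read 700.3 and 1263 in sham and 244 and 276 in te2, a log2 change of -2.02 (SE 0.22) (adjusted p = 2.22e-11). Timp3, an inhibitor of metalloproteinases held in the matrix, read 350.1 and 434 in sham and 95.5 and 119.5 in te2 (adjusted p = 2.60e-09), and Vcan, the proteoglycan versican, read 295 and 355 in sham and 72.98 and 109 in te2 (adjusted p = 2.99e-08). The proteases Adamts9 and Adamts1, which cleave versican, fell too, with log2 changes of -1.68 (SE 0.27) and -2.39 (SE 0.41). Lrg1, a secreted modulator of TGF-beta signalling, rose, at 0 and 11.3 in sham and 79.8 and 136 in te2 (adjusted p = 1.07e-04).

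In luminal cells the same lists gave 2 higher and 2 lower of 16, 3 and 0 of 11, 3 and 4 of 17, 1 and 5 of 13, and 3 and 1 of 12, against 18% higher and 14.1% lower of all genes tested. Lrg1 rose there as well, at 6.63 and 5.03 in sham and 97.9 and 179 in te2, a log2 change of 4.59 (SE 0.30) (adjusted p = 2.33e-07). Tgfbr2, a TGF-beta receptor, rose, at 23.4 and 20.4 in sham and 91.5 and 79.7 in te2 (adjusted p = 1.17e-06), while the ligand Tgfb2 fell, at 55.9 and 53.4 in sham and 12.2 and 12.2 in te2 (adjusted p = 9.89e-07). Mmp7, an epithelial metalloproteinase, rose, at 0.698 and 0.529 in sham and 9.59 and 13.8 in te2 (adjusted p = 3.08e-05). The collagen-binding integrin gene Itga1 fell, at 21.99 and 17.2 in sham and 1.16 and 3.45 in te2 (adjusted p = 4.69e-05), as did Sdc4, at 237 and 179 in sham and 102 and 88.1 in te2 (adjusted p = 9.61e-05).

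The remaining genes were scarce or unchanged by the test. The 16 with fewer than 100 UMIs were Col5a3, Lamc3, Col22a1 (93 UMIs), Lama1, Col6a6, Col25a1, Col20a1, Col8a1, Col11a1, Col26a1, Col8a2, Col6a4, Col11a2, Col13a1, Col9a3 and Col10a1 (3 UMIs). Col23a1 and Col27a1, with 253 and 232 UMIs, passed in no class in which they could be tested. A test that is missed does not show that a gene stayed the same: in simulated counts, 4-fold changes were recovered in 86.5% of changed genes in the fibroblast-rule, 51.0% in the basal-rule and 95% in the luminal comparison and 2-fold changes in 15.2%, 6.06% and 22%. For a difference of response, 4-fold changes were recovered in 4% between fibroblasts and basal cells and 7% between basal and luminal cells.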

How the data were processed

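Single-cell libraries of 4 ventral prostates, 2 sham and 2 te2, were read from tables of raw UMI counts per gene and cell that the authors deposited; per the submitters' processing notes they used Seurat 5.0.1 under R 4.3.2 as well as bustools 0.39.4 and kallisto 0.46.1, with build GRCm39 and no role given for each. Per the labels' protocols the libraries are 3' v3.1 droplet libraries. Genes that a library does not list were set to 0 there. The matrix genes, class rules and gene lists were chosen with earlier results of these data known. The marker cut of 0.5% for naming cells of no rule was set after the data were seen. For each class the deposited UMI counts of a library's cells were added up, and all genes were tested with edgeR 4.0.16 (two-sided quasi-likelihood test after filterByExpr, with TMM factors; Benjamini-Hochberg adjusted p, FDR 0.05). SE is the absolute log2 change over the square root of the F statistic. Normalized CPM is scaled by total times TMM factor; 3' UMI counts are not scaled by length, so counts of different genes are set side by side as counts only, and mean CPM across genes serves only to choose which to print. Doublets called by scrublet in scanpy 1.11.5 (97 cells, 1.2%) were kept, and left out as an alternative. With 2 animals a group, p-values rest largely on a spread pooled over genes. Same-numbered sham and te2 libraries did not deviate together (correlations of -0.0067, -0.032 and 0.017 in the 3 classes), so no pairing was used. DESeq2 1.42.0, other scalings, filters, cell thresholds and leaving out each library were alternatives. The fits were tested on simulated counts. Matrix genes were named where past FDR 0.05 in a class or with at least 100 UMIs, with values in every library for the former and for the 8 of highest mean CPM in each class; from the 5 lists at most 6 genes per class past FDR 0.05 were named, by adjusted p. RefSeq promoter windows are of GRCm38.p6; no coordinates of the authors' build were used. The values of 1 matrix gene are not reported here or drawn; it remains in the counts over genes.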

Additional observations from a re-analysis of the deposited data

Results flagged for a closer look

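Responses that differed between cell classes drew attention by the test of class by treatment. Between fibroblasts and basal cells the difference in log2 change was 1.66 for Sparc, 2.02 for Lamc1, 3.02 for Ogn (SE 0.70, adjusted p = 0.00568), 3.6 for Bgn (SE 0.85, adjusted p = 0.00568) and 1.47 for Col4a2 (SE 0.36, adjusted p = 0.00928), by edgeR in each case. Between basal and luminal cells it was 3.02 for Col7a1 and -1.87 for Lamc1. Each of these values comes from 2 animals a group, and 0 of them were called without te2 replicate 1 or without te2 replicate 2. Each also uses basal-only cells, of which sham replicate 1 had 26, and the basal counts of Bgn were 3 to 5 UMIs per library. Those of Ogn were 5 to 11.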

How the results depend on the processing

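The count of 24 matrix genes called in fibroblasts became 13 with DESeq2, 9 in cells that meet exactly 1 rule and 13 with Dcn and Col1a2 out of the rule, and 14 to 31 with 1 library left out. In cells that meet exactly 1 rule, 8 log2 changes reversed: Col1a1 0.58, Col5a1 0.57, Col6a1 0.46, Fn1 0.50, Lama2 0.60, Lama4 0.52, Lum 0.50 and Sparc 0.45; the overlap of the rules by construction sets the cells that differ. The 9 in basal cells became 3 when class sums were thinned to 1 common total, 5 with DESeq2 and 4 to 9 with 1 library left out. The 14 in luminal cells became 9 with DESeq2 and 10 to 17 with 1 library left out. The 5 responses that differed between fibroblasts and basal cells became 0 without the filter on low counts, with doubled class thresholds or with thinned sums, 3 with all cells of each rule, 2 with at least 1000 UMIs per cell and 0 to 4 with 1 library left out. The 3 with all cells of each rule were Col18a1, Col4a2 and Lamb3, so of the 5 only Col4a2 was still called. Sparc then had a difference of 8.7e-04 and Lamc1 of 0.39. The 2 between basal and luminal cells became 0 with DESeq2 or thinned sums, 4 without TMM factors or with all cells of each rule, and 0 to 3 with 1 library left out. Chosen after the data were seen, the fits of fibroblast-only cells called 3 to 12 with 1 library left out against 9, and those of basal-only cells 5 with DESeq2 and 3 to 8 with 1 library left out against 9. For other moved counts the cause was not tested. With the replicate number as a replicate block, 24, 8 and 16 genes were called in fibroblasts, basal and luminal cells. Without TMM factors the median of all genes in fibroblasts moved from -0.0069 to 0.12 and the split of all calls from 464 higher and 573 lower to 632 and 438; between basal and luminal cells the median moved from 0.24 to 0.0011 and the split from 105 and 46 to 89 and 106. Calls that held under all alternatives run were Col17a1 (not tested in cells of exactly 1 rule) and Dpt in fibroblasts, Col18a1 and Fmod in basal cells, and Bgn, Col18a1, Col4a1, Col6a3, Col7a1 and Sparc among those in luminal cells. Col17a1 was called higher by the fibroblast rule as written, while its mean in fibroblast-only cells was 13.3 CPM in sham and 3.72 in te2. The low depth of sham basal cells and 2 animals a group limit what could be called.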
